A study of Mus musculus with 2 samples.

Results

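Tumour fibroblasts are the stromal cells of a graft that lay down its collagen scaffold. They were read here from RM-1 tumours, RM-1 being a mouse prostate cancer cell line, here injected subcutaneously in C57BL/6 animals (genotype label WT). Tumours were taken on day 10 of dosing with vehicle or with RP-6306, a small molecule that inhibits PKMYT1, the kinase that places an inhibitory phosphate on CDK1. Each arm was 1 droplet single-cell library made with the 10x 3′ v2 chemistry, and the design text names 2 tumour-bearing mice without saying whether that is in all or per arm. A cell barcode counted as a fibroblast when it held at least 500 genes, at most 15% mitochondrial UMIs (unique molecular identifiers, which count RNA molecules), at most 3 UMIs of the keratins Krt8 and Krt18, at most 1 UMI of 4 leukocyte genes (Ptprc, Lyz2, C1qa and Fcer1g), and at least 10 UMIs of Dcn, Lum, Dpt and Col3a1 with at least 2 from the first 3 of them. The rule found 168 barcodes among 19848 that passed the gene and mitochondrial limits, 67 of 9540 in the vehicle library (0.702%, exact binomial 95% interval 0.545 to 0.891) and 101 of 10308 in the RP-6306 library (0.980%, 0.799 to 1.19).

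With 1 library per arm there is no replicate check, so no test was run. Each value below is given for both libraries, with intervals that cover counting error only. A difference between the libraries is a difference between these libraries and cannot be told apart from a difference between mice, dissociations or library preparations. The fibroblasts held a median of 6660 UMIs in the vehicle library and 6732 in the RP-6306 library, and a median of 2390 genes in both. Their summed depth was 445025 and 741855 UMIs. The 2 libraries shared 34 barcode sequences, 0 of which were fibroblasts.

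Fibroblasts secrete fibrillar collagens and the proteoglycans that space them, such as decorin (Dcn) and lumican (Lum), and they remodel this matrix with proteases and cross-linking enzymes. In tumours they are commonly described as matrix-producing and contractile cells rich in smooth muscle actin, as inflammatory cells that release cytokines and complement, and as adventitial cells, a Pi16-bearing population found around vessels in many healthy tissues. Because they export so much protein, fibroblasts depend on the chaperones of the endoplasmic reticulum (ER), whose genes are raised by the unfolded protein response.

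The label was checked with collagen I, the main fibrillar collagen of connective tissue, whose genes Col1a1 and Col1a2 were not part of the rule. Collagen I lay in separate ranges. In 39 vehicle cells and 57 RP-6306 cells the lowest, median and highest sum of Col1a1 and Col1a2 was 41, 218 and 1015 UMIs and 41, 209 and 931 UMIs. In the other 28 and 44 barcodes the median was 5 UMIs in each library and the highest value 18 and 21 UMIs. A limit of 30 UMIs, chosen after these values were seen, lies in the gap, and no member lay between 21 and 41 UMIs. The collagen I-high cells made up 58.2% of the vehicle members (45.5 to 70.2) and 56.4% of the RP-6306 members (46.2 to 66.3).

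**Figure D1:**
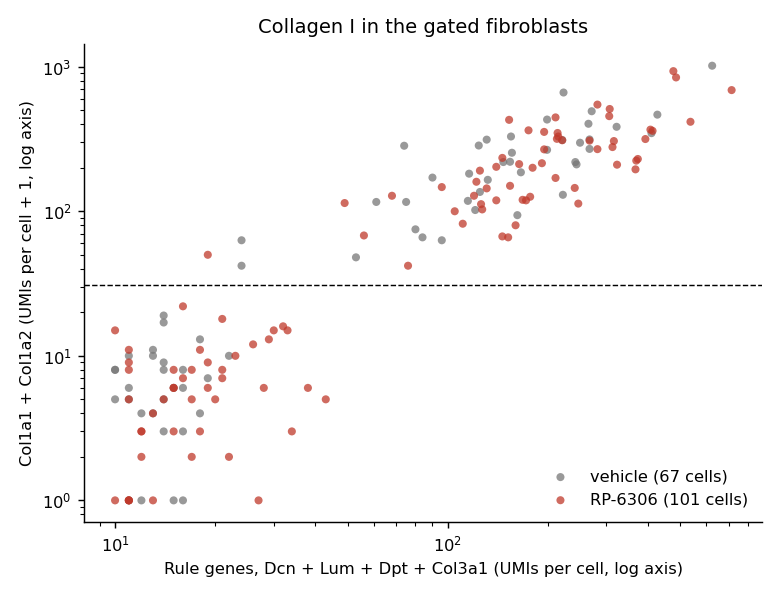
Each point is 1 gated barcode, coloured by library. The horizontal axis gives the UMIs of the 4 rule genes and the vertical axis the UMIs of Col1a1 and Col1a2 plus 1, both on log axes. The 96 collagen I-high cells and the 72 collagen I-low barcodes are separated by a gap from 21 to 41 UMIs that holds no barcode.

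The 96 collagen I-high cells also carried fibroblast genes that the rule did not use. Pdgfra, the receptor for platelet-derived growth factor that marks fibroblasts, stood at 208 CPM (UMIs of the gene per 1000000 UMIs of the summed cells) in the vehicle cells and 153 CPM in the RP-6306 cells. Postn, a matrix protein of activated fibroblasts, stood at 2489 and 2506 CPM. The 72 collagen I-low barcodes did not share this profile. Their Pdgfra was 5.40 and 13.8 CPM, their Postn 0 and 5.51 CPM, and Cxcl12, a chemokine of stromal cells, was at 0 in both libraries. Of the rule's own genes, whose levels the gate partly sets, Dcn stood at 1197 and 1748 CPM in the collagen I-high cells and at 48.6 and 30.3 CPM in the collagen I-low barcodes. The latter entered the gate largely through Dpt, which stood at 292 and 259 CPM against 115 and 164 CPM in the collagen I-high cells, and through Col3a1.

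Across 13242 genes, which are not independent replicates, the log profile of the collagen I-low barcodes had a Pearson correlation of 0.93 (vehicle) and 0.95 (RP-6306) with tumour cells chosen by keratin, and of 0.81 and 0.83 with the collagen I-high cells of the same library. The collagen I-high cells had 0.81 and 0.82 with the tumour cells. Summed markers of the tumour cells were at 448 and 452 CPM in the collagen I-low barcodes, 135 and 119 CPM in the collagen I-high cells and 2534 and 2151 CPM in the tumour cells. These markers include Krt8 and Krt18, which the rule caps in the members and by which the tumour cells were chosen. The label therefore holds for the 96 collagen I-high cells, and the other 72 are called collagen I-low barcodes with no cell type name. Values are for all 168 members, as the rule defines them, unless collagen I-high cells are named. The main lists and genes are given for both.

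Traces of leukocytes and endothelial cells were small in the collagen I-high cells. The 11 macrophage markers summed to 8 and 13 UMIs with Ptprc and Adgre1 at 0, the 8 T cell markers to 0 and 0 UMIs, the 5 neutrophil markers to 0 and 2 UMIs, and the 9 endothelial markers to 1 and 6 UMIs with Pecam1 and Kdr at 0. Pericyte markers summed to 365 and 298 CPM with Rgs5, the defining gene of those vessel-wrapping cells, at 0. Another listed pericyte marker, Ndufa4l2, was present and is given with the clusters below. Whether some of these cells are pericytes was not tested. In the collagen I-low barcodes the endothelial markers summed to 119 and 151 CPM.

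The rule limits cut through a continuum rather than a gap. At the limit of 10 rule-gene UMIs, 9 vehicle and 12 RP-6306 members held 10 to 12 UMIs, and 12 and 30 other barcodes that met the remaining limits held 7 to 9. Of the members, 22 and 34 had exactly 2 UMIs of Dcn, Lum and Dpt, and 63 and 98 barcodes just outside had 1. The tumour cells also carried rule-gene UMIs, since 24.7% and 30.1% of them held 10 or more. Outside the rule, 14 and 16 barcodes held 30 or more collagen I UMIs, most of them for more than 3 keratin UMIs (5 and 9) or fewer than 2 UMIs of Dcn, Lum and Dpt (9 and 8).

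Genes that set the fibroblasts apart from tumour, macrophage and endothelial cells are given as a description, because the gate chose the cells on 4 of these genes. Of 1876 genes with at least 100 UMIs in the members, 166 (8.85%) were at least 2-fold above the highest other class. Mfap5, a glycoprotein of microfibrils, was 9.67 higher on the log2 scale, Dcn 8.88, Cthrc1, a secreted protein of activated fibroblasts, 8.36, Lox, the enzyme that cross-links collagen and elastin, 8.07, and Lum 7.84. The secreted WNT modulators Sfrp2 and Sfrp1 were 9.22 and 7.73 higher, and the serpin Serpina3n was 6.67 higher. Apart from Dcn and Lum these genes were no part of the rule, and each of the 8 named was higher in the collagen I-high cells than in the collagen I-low barcodes.

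Among the collagen I-high cells, contractile and adventitial genes marked different cells. A cell was counted as contractile with 5 or more UMIs of Acta2 (smooth muscle actin) and Tagln (transgelin, an actin-binding protein of smooth muscle), and as adventitial with 5 or more UMIs of Pi16, Clec3b and Col14a1. Both limits were set after the values were seen, and the classes are ranges of a score. By this count 13 of 39 vehicle cells were contractile (33.3%, exact binomial 95% interval 19.1 to 50.2) and 17 of 57 RP-6306 cells (29.8%, 18.4 to 43.4). Adventitial cells were 2 of 39 (5.13%, 0.627 to 17.3) and 16 of 57 (28.1%, 17.0 to 41.5). Near the limits, 14 of the 96 cells held 3 to 7 contractile UMIs and 6 held 3 to 7 adventitial UMIs, and 1 cell met both limits.

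**Figure D2:**
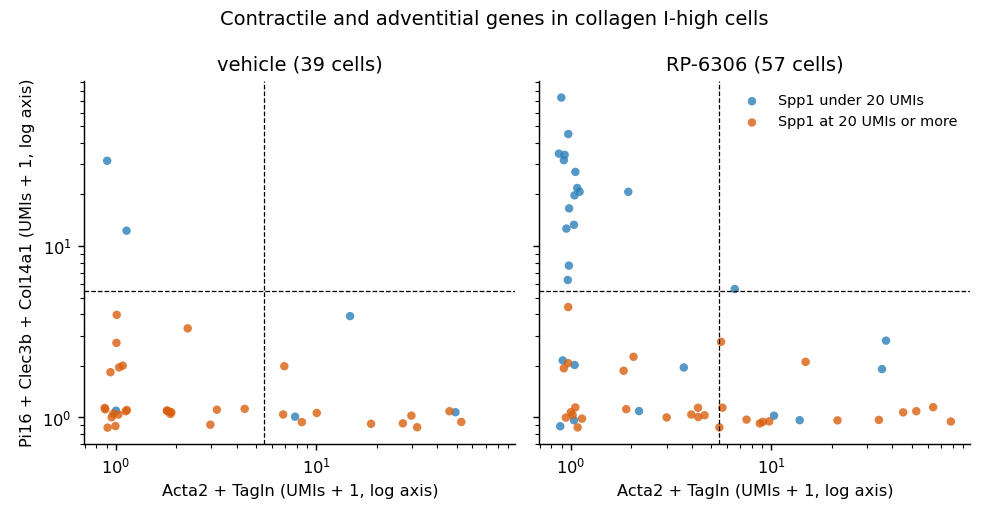
Each point is 1 collagen I-high cell, with vehicle at left and RP-6306 at right. The axes give the UMIs plus 1 of the contractile pair Acta2 and Tagln and of the adventitial trio Pi16, Clec3b and Col14a1, on log axes. Cells high on one axis lie low on the other, and the RP-6306 panel holds 16 adventitial cells against 2 in the vehicle panel.

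Spp1, which encodes the secreted matrix and bone protein osteopontin, divided the same cells. It reached 20 UMIs in 33 of 39 vehicle cells (84.6%, 69.5 to 94.1) and 31 of 57 RP-6306 cells (54.4%, 40.7 to 67.6), and in 0 of the 18 adventitial cells. The median over both libraries was 1 UMI in adventitial cells, 80.5 in contractile cells and 162 in the 49 cells that were neither. Unsupervised Leiden clustering of all 168 members, with no use of the limits above, gave 5 clusters, given as a description. Cluster 1 held 83 cells, 82 of them collagen I-high, and 18 of the 18 matrix genes were at least 2-fold above the other members. Cluster 4 held 14 cells, was adventitial-like by its markers and showed 14 of the 14 listed adventitial genes at least 2-fold above the rest. These counts of list genes had no UMI minimum, so genes with very few UMIs can be among them. The share of all genes past 2-fold in each cluster was not computed. The clusters were built from the same data, so the counts are no check of them. Clusters 2, 3 and 5 held 33, 31 and 7 collagen I-low barcodes.

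At a finer resolution cluster 1 separated mainly into 36 cells led by genes such as Spp1, Mmp13 and Cxcl12, 25 cells led by Tagln and Acta2, and 19 cells led by Saa3, Mmp3 and Cilp. The pericyte marker Ndufa4l2 was also among the leading genes of the 25 cells, at 410 CPM against 74.7 CPM in the other members. Cluster 5, the smallest, was led by mitotic genes, with 30 of 30 genes of the G2/M list at least 2-fold above the other members, again without a UMI minimum. This cluster held no collagen I-high cell.

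The share of cells with a marker UMI was compared after thinning each cell once at random to 2000 UMIs, which left out 1 shallower cell per library. Acta2 was seen in 22.7% of vehicle members (13.3 to 34.7) and 19.0% of RP-6306 members (11.8 to 28.1), beside 1.31% and 1.20% of macrophages, which should lack it (unthinned 34.3% and 27.7% of members). The inflammatory marker Cxcl12 was seen in 18.2% and 18.0% of members (unthinned 37.3% and 30.7%) and in 0 and 0 tumour cells. Pi16 was seen in 3.03% (0.369 to 10.5) and 9%, beside 3.49% and 0% of macrophages. The vehicle share was thus no higher than in macrophages, although 1 vehicle cell held 13 Pi16 UMIs before thinning. Cd74, the invariant chain used by antigen-presenting cells, was seen in 0 of 66 and 0 of 100 thinned cells, which allows a share of cells with a UMI of up to 4.55% and 3% (3 counts of the total).

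Between the libraries, 5243 genes had at least 30 UMIs over the members. On the scale log2(CPM + 1), 117 of them (2.23%) were at least 2-fold higher in the RP-6306 library and 78 (1.49%) at least 2-fold lower, with a median over 8870 genes of −0.00. In the collagen I-high cells, 146 of 3182 genes (4.59%) were 2-fold higher and 71 (2.23%) 2-fold lower. Without the adventitial cells described above, 103 of 2630 genes (3.92%) were 2-fold higher and 48 (1.83%) 2-fold lower. These shares are the background against which the lists below are read.

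The 18 matrix genes, the collagens and glycoproteins of the scaffold, summed to 64003 CPM in vehicle and 58178 CPM in RP-6306 members, a ratio of 0.909 (0.895 to 0.923), with 5 of 18 higher and 1 past 2-fold. In the collagen I-high cells the sums were 105545 and 108247 CPM, a ratio of 1.03, with 9 higher and 9 lower and a median log2 difference of −0.03, so the direction of the sum turned with the choice of cells. Col3a1, the collagen III chain, stood at 15637 and 17028 CPM. Col1a1 was at 14181 and 13094 CPM in all members and at 23651 and 24972 CPM in the collagen I-high cells. Postn differed little, at 1454 and 1282 CPM. The microfibrillar collagen VI chain Col6a3 was the 1 matrix gene past 2-fold, at 2132 and 1033 CPM (ratio 0.484, 0.440 to 0.533), and Col6a1, another chain of the same collagen, was at 1732 and 957 CPM. Among collagen I-high cells Col6a3 was at 3605 and 1854 CPM, a ratio of 0.514. Lox, by contrast, was at 243 and 439 CPM (ratio 1.81, 1.45 to 2.27).

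Other matrix families gave ratios close to 1. Small leucine-rich proteoglycans had a ratio of 0.863, basement membrane genes 0.920, elastic fibre genes 1.04 and collagen processing enzymes 1.12, with no more than 2 genes of any of these lists past 2-fold. Among the most abundant genes of the proteoglycan list are Dcn and Lum, whose levels the gate partly sets. The matrix proteases and their inhibitors summed to 7636 and 6340 CPM (ratio 0.830, 0.794 to 0.868), with 1 gene past 2-fold higher and 3 lower. Timp3, an inhibitor of metalloproteinases that stays bound to the matrix, was at 337 and 71.4 CPM (ratio 0.212, 0.152 to 0.292), in 22 of 67 and 22 of 101 cells. Collagen I-high cells held it at 577 and 135 CPM. The stromelysin Mmp3 was at 1467 and 720 CPM, a ratio of 0.491, with as many as 151 and 178 UMIs in a single cell.

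Spp1 gave a difference of many more molecules than the other genes that were lower in the RP-6306 library. In the collagen I-high cells it had a lowest, median and highest count of 2, 118 and 1424 UMIs per vehicle cell and 0, 39 and 761 UMIs per RP-6306 cell, so the cells of the libraries overlapped widely. Its level was 34983 and 18146 CPM there, and 21062 and 10303 CPM over all members, a ratio of 0.489 (0.475 to 0.504). Without the adventitial cells, which held little Spp1 and were more frequent in the RP-6306 library, the levels were 37532 and 25075 CPM, a ratio of 0.668.

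Pdgfrb, the second receptor for platelet-derived growth factor, was at 422 and 206 CPM (ratio 0.488, 0.392 to 0.608) and was the 1 gene of the 26 receptors past 2-fold. Its collagen I-high values were 654 and 327 CPM, just short of 2-fold. Pdgfra was at 124 and 84.9 CPM, with an interval of the ratio from 0.471 to 1.005, and the activated-fibroblast protease Fap was at 80.9 and 71.4 CPM. Cygb, a cytoglobin found in fibroblast-lineage cells, was at 429 and 163 CPM (ratio 0.380), and Rgs16, a brake on G protein signalling, at 126 and 29.7 CPM (ratio 0.236). For the collagen I-high cells these ratios were 0.428 (Cygb) and 0.245 (Rgs16). The alpha-2A adrenergic receptor gene Adra2a was at 243 and 107 CPM and the secreted protein gene Angptl2 at 238 and 97.1 CPM, with collagen I-high ratios of 0.477 and 0.455. The receptor list as a whole had a ratio of 0.851 and the lineage transcription factors 0.865, with 19 of the 20 factors that reached 10 UMIs lower and 0 past 2-fold. Both lists lay nearer 1 in the collagen I-high cells, at 0.921 and 0.887.

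**Figure D3:**
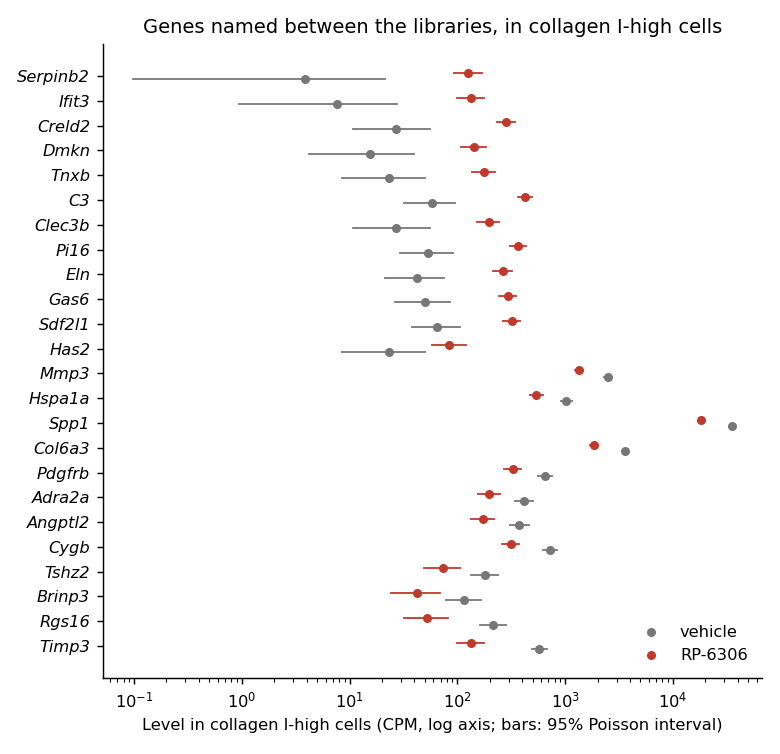
Points give the level of each gene named between the libraries, in CPM on a log axis, in the collagen I-high cells of the vehicle and the RP-6306 library, and bars the exact 95% Poisson interval. Pi16 reaches 53.9 CPM in the vehicle cells and 364 CPM in the RP-6306 cells, while Timp3 is at 577 and 135 CPM.

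Of the 12 genes named as higher in the RP-6306 library, 6 were among the 10 leading genes of the adventitial-like cluster (Pi16, Clec3b, Eln, Tnxb, Gas6 and Dmkn). Their excess and the larger number of adventitial cells above are the same measurement read in different ways. Pi16, a peptidase inhibitor that marks these cells, was at 33.7 and 189 CPM (ratio 5.60, 3.28 to 10.3), Clec3b (tetranectin) at 15.7 and 99.8 CPM, and the matrix protein tenascin X (Tnxb) at 15.7 and 95.7 CPM. Elastin (Eln) was at 24.7 and 135 CPM, and Gas6, a ligand of the AXL family of receptors, at 29.2 and 151 CPM. Few cells held them, since Pi16 was seen in 3 of 67 and 11 of 101 members and Eln in 6 and 13. Of the Pi16 UMIs in collagen I-high cells, 1 vehicle cell held 92.9% and 1 RP-6306 cell 37.7%. The interval of the Pi16 ratio does not cover such spread between cells. Over the adventitial list the sums were 2593 and 3592 CPM (ratio 1.39, 1.29 to 1.49), with 6 of 11 genes past 2-fold higher against 2.23% of all genes. The ratio was 1.65 in the collagen I-high cells and 1.07 in those cells without the adventitial ones.

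Leaving out the adventitial cells, which were defined by Pi16, Clec3b and Col14a1, left little of these differences. Gas6 then stood at 33.0 and 36.6 CPM, Eln at 4 and 1 UMIs and Tnxb at 1 and 0 UMIs. Ly6a (Sca-1), a surface protein of adventitial and progenitor cells, kept a ratio of 2.39 (1.63 to 3.59) without them, beside 2.05 over all members at 303 and 621 CPM.

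Inflammatory genes stood higher on balance after RP-6306. The list summed to 3092 and 4252 CPM (ratio 1.38, 1.29 to 1.47), with 14 of 19 genes higher, 6 of 17 past 2-fold higher and 1 lower, and the ratio was 1.58 in the collagen I-high cells. The complement component C3 had 33.7 and 217 CPM (ratio 6.44, 3.79 to 11.8), in 7 of 67 and 26 of 101 members. All of its UMIs lay in collagen I-high cells. Without the adventitial cells C3 had 10 and 21 UMIs, a ratio of 1.86 (0.838 to 4.42), so most C3 molecules of the RP-6306 library lay in adventitial cells.

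Has2, which makes hyaluronan, was at 29.2 and 151 CPM, and here the larger part lay in the collagen I-low barcodes, since 6 of 13 and 32 of 112 UMIs were in collagen I-high cells. The monocyte attractant Ccl2 was at 449 and 565 CPM over all members and at 162 and 407 CPM in the collagen I-high cells, a ratio of 2.52 (1.78 to 3.63). Cxcl12 was at 148 and 221 CPM (ratio 1.49, 1.11 to 2.02), with every UMI in collagen I-high cells. It was seen in 64.1% of those cells in vehicle and 54.4% in RP-6306, with a median of 1 UMI in both. The cell with most Cxcl12 held 10 UMIs in vehicle and 35 in RP-6306, 15.2% and 21.3% of the total. Il6, the cytokine most used to name inflammatory fibroblasts, had only 2 and 16 UMIs. The complement list summed to 1222 and 1721 CPM (ratio 1.41, 1.27 to 1.56), with 2 of 7 genes past 2-fold higher, and to 2008 and 3298 CPM in the collagen I-high cells (ratio 1.64, 1.48 to 1.82).

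Contractile genes showed no such excess. The list was at 2407 and 2185 CPM (ratio 0.908, 0.840 to 0.982), and at 2917 and 2873 CPM in the collagen I-high cells (0.985, 0.897 to 1.08), with 0 genes past 2-fold in either. Acta2 was at 373 and 270 CPM over all members and 500.2 and 489 CPM in the collagen I-high cells, and Tagln at 387 and 386 CPM and at 662 and 753 CPM. Without the adventitial cells the contractile ratio was 1.20.

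ER chaperones, which fold secreted proteins, stood above their vehicle level in all 18 genes, with a median log2 difference of 0.86 over all members against −0.00 for all genes, and 7 of 18 were past 2-fold against 2.23% of all genes. The list summed to 6103 and 10854 CPM (ratio 1.78, 1.70 to 1.86). Among collagen I-high cells it summed to 6137 and 13203 CPM (ratio 2.15, 2.03 to 2.28), with 11 of 18 past 2-fold against 4.59% of genes in those cells. The ratio was 2.17 without the adventitial cells and 1.39 (1.30 to 1.49) in the collagen I-low barcodes.

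The same list was also higher in other cells of the RP-6306 library, with a ratio of 1.23 in tumour cells, 1.36 in macrophages and 1.70 in the 53 endothelial cells. Whether the ratio of fibroblasts differs from these was not tested. In the collagen I-high cells the lowest, median and highest share of a cell's UMIs in these genes was 0.165%, 0.563% and 1.43% in vehicle and 0.488%, 1.33% and 2.30% in RP-6306. The ranges overlapped, but the RP-6306 median lay close to the vehicle maximum.

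Promoters are printed for 5 of the 7 listed chaperone genes found to hold a binding element, the ER stress response element. The factor ATF6 binds this element together with NF-Y in the unfolded protein response. The element was searched as CCAAT and CCACG with 9 bases of any kind (N) between them, on both strands. The window was the 250 bases before each start of RefSeq's GRCm38.p6 annotation. The 19-base match stands in capitals, in the strand of the gene, with the reverse complement where the match lies on the other strand.
Hspa5, chr2:34772005-34772063, plus strand: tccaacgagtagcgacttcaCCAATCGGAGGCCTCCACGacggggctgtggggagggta
Hsp90b1, chr10:86705618-86705676, minus strand: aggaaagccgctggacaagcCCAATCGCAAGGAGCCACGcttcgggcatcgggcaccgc
Creld2, chr15:88819500-88819558, plus strand: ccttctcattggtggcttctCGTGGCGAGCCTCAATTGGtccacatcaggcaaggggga
Dnajc3, chr14:118937807-118937865, plus strand: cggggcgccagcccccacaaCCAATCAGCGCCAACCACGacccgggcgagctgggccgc
Pdia6, chr12:17266471-17266529, plus strand: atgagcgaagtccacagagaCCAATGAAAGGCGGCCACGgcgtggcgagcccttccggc

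The match was found in 7 of the 16 listed chaperone genes with a promoter entry (43.8%), in 35 of all 27025 genes (0.130%) and in 9 of 4162 genes with at least 30 UMIs in the members (0.216%). It was in 0 of 12 matrix, 0 of 13 inflammatory, 0 of 9 contractile and 0 of 8 adventitial promoters. The other 2 chaperone genes that hold it are Calr and Canx, and Hsp90b1 holds it at 2 places. A match is a description of the letters and not a measured binding site, and Sdf2l1 and Manf, which were among the most different genes, did not hold these letters in the window.

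Hspa5, the main chaperone of the ER lumen (also called BiP), had 1, 6 and 25 UMIs per vehicle cell as lowest, median and highest and 6, 22 and 55 per RP-6306 cell in the collagen I-high cells. Its level there was 1200 and 3396 CPM (ratio 2.83, 2.50 to 3.21). Creld2, a secreted ER stress protein, was at 26.9 and 285 CPM, in 5 of 39 and 48 of 57 cells, and Sdf2l1, a partner of Hspa5, at 65.4 and 320 CPM, in 12 of 39 and 45 of 57 cells. These genes were thus spread over many cells of the RP-6306 library and did not rest on 1 cell. After thinning, Creld2 was seen in 4.55% of vehicle and 33.0% of RP-6306 members (unthinned 20.9% and 72.3%). Each thinning was 1 separate random draw, and the gap differed between the draws, so it is not a measure of depth alone. Thinned to 1000 UMIs, Creld2 was seen in 10.4% of vehicle members (4.30 to 20.3) and 15.8% of RP-6306 members (9.33 to 24.4). Those intervals overlapped.

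Manf, a secreted ER stress protein, was at 431 and 1455 CPM, Hsp90b1, the ER form of HSP90, at 927 and 2031 CPM, and the co-chaperone Dnajc3 at 158 and 460 CPM. The disulphide isomerase Pdia6 was at 558 and 1051 CPM, Calr (calreticulin) at 708 and 1029.8 CPM and Canx (calnexin) at 319 and 386 CPM. Of the 5 genes printed above, log2 differences ran from 0.91 for Pdia6 to 3.36 for Creld2. Calr and Canx, which also hold the element but were not printed, differed less than any of these 5. The smallest difference in the list was that of Herpud1, part of the machinery that removes misfolded proteins, at 150 and 158 CPM.

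**Figure D4:**
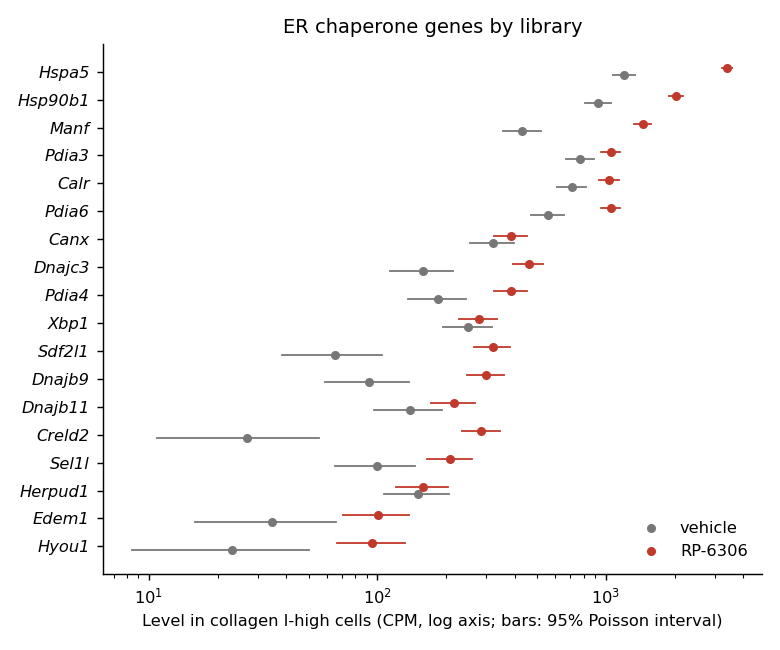
Points give the level of each of the 18 ER chaperone genes in CPM on a log axis in the collagen I-high cells, by library, with exact 95% Poisson intervals as bars. The RP-6306 point lies to the right of the vehicle point in all 18 genes, by the largest step for Creld2 at 26.9 and 285 CPM.

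Type I interferon genes, which interferon alpha and beta induce, rested largely on 1 cell. The list summed to 2144 and 2739 CPM over all members (ratio 1.28, 1.18 to 1.38), with 22 of the 28 genes that reached 10 UMIs higher and 4 of 9 past 2-fold higher. For the collagen I-high cells it summed to 2147 and 2855 CPM (ratio 1.33, 1.20 to 1.48), and 1 RP-6306 cell held 261 of their 1081 UMIs. Without the cell with most list UMIs in each library the ratio was 1.15 over all members and 1.05 (0.943 to 1.18) in the collagen I-high cells, an interval that includes 1. The median collagen I-high cell had 0.206% of its UMIs in these genes in vehicle and 0.195% in RP-6306. The antiviral gene Ifit3 had 2 and 55 UMIs, of which 40 lay in 1 RP-6306 cell. Bst2 (tetherin), which holds budding virus at the membrane, did not rest on 1 cell, with 56.2 and 191 CPM (ratio 3.41, 2.22 to 5.44), in 20 of 67 and 65 of 101 cells. Among the collagen I-high cells it was seen in 10 of 39 and 32 of 57. Ifnb1, the gene of interferon beta, had 0 UMIs in both libraries.

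The interferon gamma list had a ratio of 1.77 (1.47 to 2.16) over all members. The collagen I-high cells held only 58 and 172 UMIs of it (ratio 2.04, 1.503 to 2.79), of which 25 and 87 lay in 1 cell per library, and without those cells the ratio was 1.75 (1.16 to 2.70). MHC class I presentation had 1.25 (1.19 to 1.31) over all members and 1.37 (1.26 to 1.49) in the collagen I-high cells. This list shares 3 genes with the ER chaperones (Calr, Canx and Pdia3), and without them the ratios were 1.22 (1.15 to 1.30) and 1.36 (1.19 to 1.56).

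The remaining lists describe cell state and signals. Over all members G2/M genes had a ratio of 0.943 (0.847 to 1.05) and S-phase genes 1.01 (0.878 to 1.15), and in the collagen I-high cells 0.803 (0.646 to 0.998) and 0.750 (0.572 to 0.985). The targeted gene Pkmyt1 had 4 UMIs in each library, and Mki67, a marker of cycling cells, 12 and 9 UMIs, too few to compare. Cytosolic heat shock genes had a ratio of 1.27, TGF-beta response genes 0.953, growth factors 0.966 (with a median log2 difference of 0.10, of the other sign), hypoxia and glycolysis genes 1.02, immediate-early genes 0.992 and WNT and BMP modulators 1.13. Their collagen I-high ratios were 1.25, 1.09, 1.11, 0.976, 1.07 and 1.295 in the same order, so the TGF-beta, growth factor, hypoxia and immediate-early ratios lay on the other side of 1 there. The antigen presenting list held only 27 and 38 UMIs, a ratio of 0.844 (0.502 to 1.44).

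**Figure D5:**
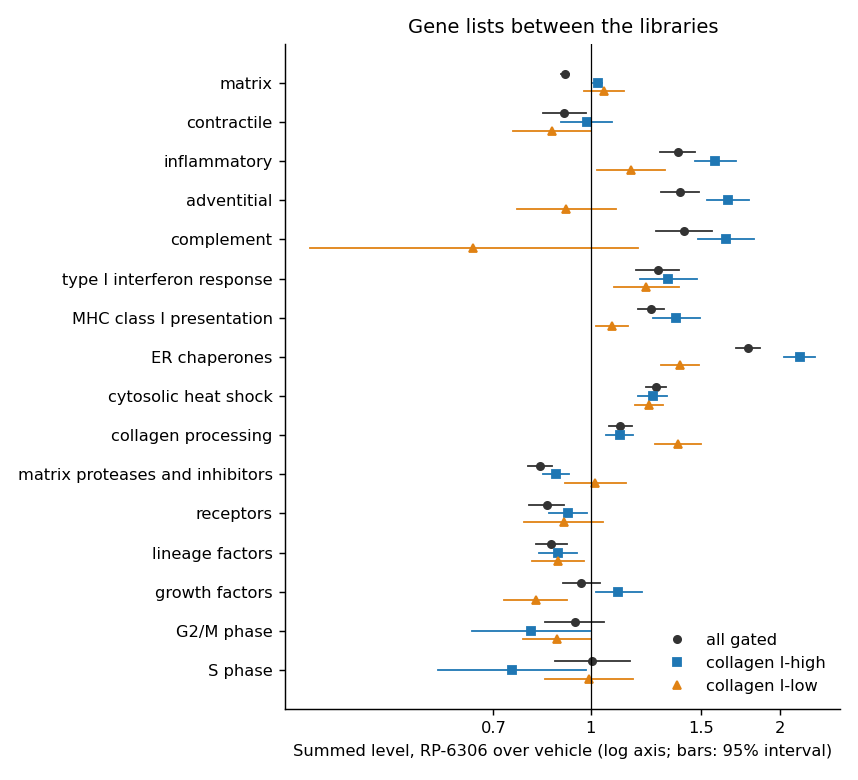
Points give the ratio of each gene list's summed level, RP-6306 over vehicle, on a log axis, with exact conditional 95% intervals as bars. Separate points stand for all gated members, the collagen I-high cells and the collagen I-low barcodes. Over all members and in the collagen I-high cells, the ER chaperones lie at 1.78 and 2.15, and the contractile list at 0.908 and 0.985.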

How the data were processed

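The deposited matrices hold raw UMI counts per feature (55357) and barcode, and per the file headers they were written by Cell Ranger 7.1.0. Version 2.1.1 and the build mm10 stand in the submitters' processing notes, and this disagreement was not settled. Gates were applied as given in the opening paragraph of the results. UMIs were summed per library and turned into CPM, and log2 ratios used CPM + 1 (minimum 30 UMIs for a gene, 10 in list medians, none in the list counts of clusters). Intervals were exact Poisson, Clopper-Pearson binomial and conditional binomial at 95%. Coverage was checked for the conditional interval of ratios only, on simulated Poisson counts. Those counts hold no variation between cells, so the check does not show coverage where molecules gather in few cells. Clustering (1000 variable genes, 15 components, 10 neighbours, resolution 0.5) used scanpy 1.11.5 and leidenalg 0.10.2. TMM factors came from edgeR 4.0.16 in R 4.3.3. Other tools were Python 3.11.15, numpy 2.4.6, scipy 1.17.1, pandas 2.3.3 and matplotlib 3.10.9. Tumour cells were chosen by at least 10 UMIs of Krt8 and Krt18, macrophages by at least 10 of the leukocyte genes with C1qa, and endothelial cells by at least 5 of Pecam1, Cdh5, Kdr and Egfl7, each with the other classes' genes at most at the limits above and at most 1 UMI of Dcn, Lum and Dpt.

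Doublets were scored with Scrublet in scanpy and not removed: its automatic threshold marked 0 and 1 barcodes, so it had not worked, and among the 685 and 732 barcodes above an 8% limit there were 0 fibroblasts. Named genes were at most 12 per direction between the libraries (2-fold, 5 cells of the higher library, ordered by the interval bound nearest 1), at most 20 against the other classes, the 3 most abundant and 2 most different members of each list, and a set of defining genes; the text gives those that carry a result, and other members of the ER chaperone list it prints were chosen after their values were seen. Promoters came from RefSeq (GRCm38.p6). The members, lists and limits were chosen with earlier results of these data known.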

Additional observations from a re-analysis of the deposited data

Results flagged for a closer look

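For 3 gene lists the summed level differed in 1 direction in all gated members and in the other in the tumour cells of the same libraries. The members include the collagen I-low barcodes, and the collagen I-high cells went the way of the members in each list. The matrix proteases and inhibitors had a ratio, RP-6306 over vehicle, of 0.830 (0.794 to 0.868) in the members and 1.01, close to 1, in the tumour cells. The WNT and BMP modulators had 1.13 (1.01 to 1.25) and 0.943, and the complement list 1.41 (1.27 to 1.56) and 0.870. The tumour cells held far fewer molecules of the complement list, 18.3 and 15.9 CPM against 1222 and 1721 CPM. With 1 library per arm the difference between the cell classes was not tested.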

How the results depend on the processing

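The ratios of the ER chaperone, inflammatory, adventitial and type I interferon lists stayed above 1 under every alternative run. Removing barcodes with the highest doublet scores or more than 10% mitochondrial UMIs took out 0 members, so these settings bear on nothing. No paired analysis was possible because each arm is 1 library. A minimum of 20 rule-gene UMIs gave shares of 0.419% and 0.698% of kept barcodes, 196 genes 2-fold higher, ratios of 1.96 (ER chaperones), 1.25 (adventitial) and 0.766 (matrix), Cxcl12 in 30% of vehicle cells, and the other direction for Col3a1 (log2 −0.11), WNT and BMP modulators (0.963) and collagen processing (0.980). A minimum of 5 gave 0.943% and 1.37%, and 1.29 (adventitial), 1.28 (inflammatory) and 0.873 (matrix). With no keratin UMI the shares were 0.367% and 0.456%, the ratios 2.08 (ER chaperones), 1.53 (inflammatory), 1.52 (interferon) and 0.935 (matrix), and Acta2 and Cxcl12 were each in 28.3% of RP-6306 cells.

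The following cell choices were made after seeing the data. The collagen I-high cells alone were 0.409% and 0.553% of kept barcodes, with ratios of 2.15, 1.65 (adventitial), 1.58 (inflammatory) and 0.985 (contractile), Acta2 in 30.4% and Cxcl12 in 30.8% and 32.1%, and the interferon ratio was 1.05 without the cell holding most of it in each library. There the direction turned for the matrix list (1.03), fibrillar collagens (1.03), TGF-beta response (1.09), Col1a1 (log2 0.078) and Postn (0.0095). Without the adventitial cells they were 0.388% and 0.398%, with 48 genes 2-fold lower, ratios of 2.17, 1.07, 1.43 (interferon, 1.04 without the cell holding most of it in each library) and 0.998 (matrix), Acta2 in 42.5%, Cxcl12 in 32.4% and 37.5% and Pi16 in 0% of RP-6306 cells. The direction turned for the contractile list (1.20), TGF-beta response (1.11), Acta2 (0.33), Col1a1 (0.057), Postn (0.056), Dcn (−0.15), Eln (−1.91), Pi16 (−2.36) and Tnxb (−2.36), the last 3 from at most 5 UMIs in all.

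Means of per-cell CPM gave 1.86 (ER chaperones), 1.68 (adventitial), 0.986 (contractile), 1.0001 (matrix), 1.04 (TGF-beta response) and 0.015 (Col1a1 on the log2 scale), the last 3 in the other direction. The matrix ratio was 0.942 with TMM scaling, 0.851 without the rule genes and 0.932 without the cell holding most of the list in each library, a setting that gave 1.15 for interferon and 185 genes 2-fold higher. A minimum of 1 UMI gave 2962 genes higher and 2208 lower, one of 100 UMIs 29 and 15, and a pseudocount of 10 CPM 64 and 32. Unthinned, Cxcl12 was in 37.3% and 30.7% of cells and Cd74 in 3.96% of RP-6306 cells. Thinned to 1000 UMIs in 1 random draw, Cxcl12 was in 4.48% of vehicle and 12.9% of RP-6306 cells. Creld2 was in 10.4% of vehicle and 15.8% of RP-6306 cells. The cause of these shifts was not tested. Depth limits the lists under 100 UMIs (antigen presenting) and genes such as Il6 and Pkmyt1.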

Other observations

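Some genes that the naming rule did not select differed in the collagen I-high cells, and they are given here as values chosen after they were seen. The metallothioneins Mt1 and Mt2, which bind zinc and copper, were at 1974 and 5933 CPM and at 1397 and 3517 CPM (vehicle and RP-6306), a ratio of 3.01 (2.73 to 3.31) and 2.52 (2.24 to 2.84). Il33, an alarmin cytokine kept in the nucleus of stromal cells, was at 131 and 293 CPM, in 15 of 39 and 24 of 57 cells. Mgp, the matrix Gla protein that limits calcification, was at 1816 and 1017 CPM, a ratio of 0.560.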
